A study of Mus musculus with 6 samples.

Results

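The secondary and tertiary neutrophil granule genes were followed in sorted bone marrow cells of wild-type (WT) and NHD13 mice. They are 10 genes, chosen by symbol from the 17523 entries of the deposited count table: S100a8, S100a9, Ltf, Camp, Ngp, Lcn2, Mmp8, Mmp9, Retnlg and Chi3l3. All 10 were found in the table and all 10 passed the filter on low counts. Both groups were C57BL/6 mice, and RNA came from marrow cells sorted by FACS that the series describes as hematopoietic stem cells. The 3 NHD13 libraries carry the NUP98-HOXD13 fusion, made from a nucleoporin gene and a homeobox gene and used to model myelodysplastic syndrome, and the 3 WT libraries do not. The sort markers, the age of the mice, the promoter of the fusion and the number of animals per library are not stated in the labels. Nothing in the labels says that replicates came from separate animals, so p-values measure only the spread between these libraries, which may be technical.

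Neutrophil precursors fill their granules in waves. Primary granules with myeloperoxidase and elastase are made first, secondary (specific) granules with lactoferrin and lipocalin 2 follow at the myelocyte stage, and tertiary (gelatinase) granules come later. The genes of the specific wave are known targets of C/EBP epsilon, and their RNA marks cells well past the stem cell stage.

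Total counts ran from 12541538 to 14388772 per library. The row for the fusion transcript held 0 counts in each WT library and 185, 179 and 167 in NHD13 replicates 1, 2 and 3. Of 12013 genes tested with edgeR's quasi-likelihood test, 15.3% were called lower and 15.0% higher in NHD13 at an adjusted p under 0.05 (30.3% in either direction), and the median log2 change of all tested genes was 0.00. NHD13 replicate 1 stood apart from its group, with a chi-square per degree of freedom of 28.3 and 27.9 against NHD13 replicates 2 and 3, which differed from each other by 3.46. Its value against WT replicate 1 was lower, at 20.4. WT replicate 1 differed from WT replicates 2 and 3 by 13.01 and 7.51, where those differed from each other by 4.64.

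The 10 granule genes together made up 4.62% ± 0.938 of a WT library and 2.94% ± 0.494 of an NHD13 library (SD, n = 3 each). They include S100a8 and S100a9, whose proteins are cytosolic. In WT these had means of 8065 and 12553 CPM, where the 10 summed to a mean of 46178 CPM. In NHD13 the means were 5393 and 7934 CPM of 29428 CPM. All 10 had a negative log2 change, and 9 of 10 passed the test as lower, against a background of 15.3% of tested genes called lower. All 10 were lower at an unadjusted p under 0.05, which 21.2% of tested genes reached. None passed as higher, at an adjusted or an unadjusted p under 0.05, by edgeR, DESeq2 or limma-voom. For 8 of the 10 every NHD13 library lay below every WT library, where 22.6% of tested genes did so. The median log2 change of the 10 was -0.78, and the changes ran from -0.44 for Camp to -1.45 for Retnlg. In bulk RNA, fewer cells of a type and less of its RNA per cell cannot be told apart.

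The count of 9 depended on single libraries. It was 10 without WT replicate 1, 3 without WT replicate 2 or WT replicate 3, and 7 without NHD13 replicate 2 or NHD13 replicate 3. Without NHD13 replicate 1 it was 0 by edgeR, with 3 genes at an unadjusted p under 0.05, while DESeq2 called 7 and limma-voom 0 on the same 5 libraries (both chosen after seeing the data). How many of all genes those DESeq2 and limma-voom fits called was not counted, so their 7 and 0 have no background. Over all genes that edgeR fit called 2966 of 12269 lower, more than the 1839 of 12013 called with all 6 libraries. The count over all genes was 1615 of 12232 without WT replicate 1, 957 of 12175 without WT replicate 2 and 978 of 12132 without WT replicate 3. It was 1069 of 12207 without NHD13 replicate 2 and 1104 of 12193 without NHD13 replicate 3. With replicate 1 of both groups left out, 9 granule genes were again called lower, beside 3245 of 12176 over all genes. The 4 Y-linked genes measured summed to between 110 and 192 CPM in WT and between 176 and 280 CPM in NHD13. With their share as a covariate no granule gene was called, adjusted or unadjusted, although all 10 log2 changes stayed negative (-0.15 to -0.84). Over all genes that fit called 175 of 12013 lower and 111 higher, against 1839 and 1799 without the covariate. Calls were thus lost well beyond the granule genes, though not evenly over the lists described below. The median log2 change of the 10 was -0.42 in that fit, against -0.78 without the covariate. That of the primary granule genes was -0.62, against -0.31, and that of the monocyte and macrophage markers -1.30, against -1.56. Counts given below for other gene lists under these settings stand beside these counts over all genes. The labels give no sex, and the parts of the Y-linked share and of the genotype cannot be told apart.

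**Figure D1:**
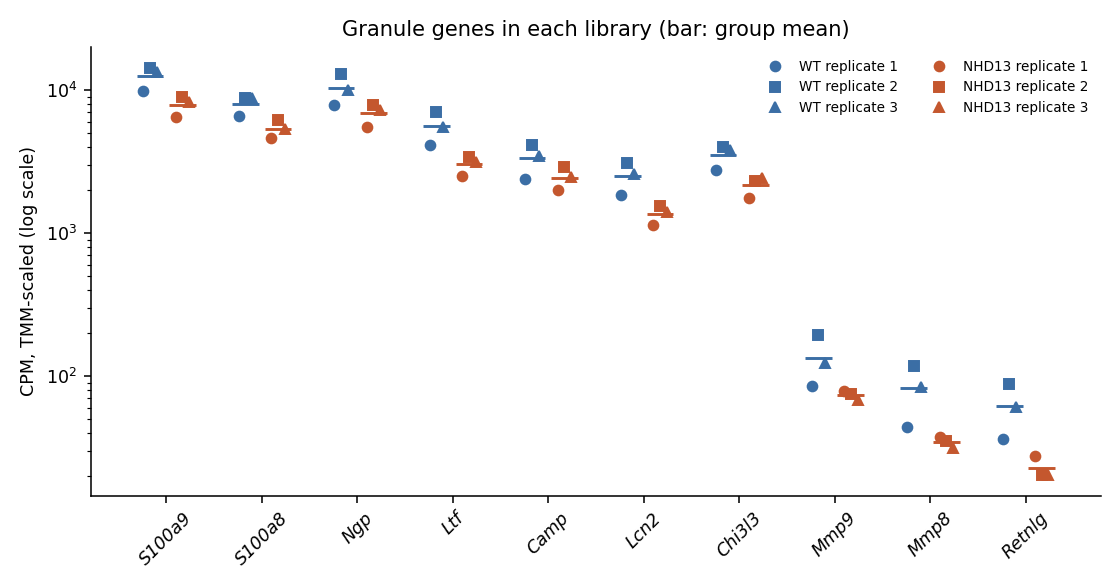
CPM (counts scaled to library size by TMM, log axis) of the 10 granule genes in each library, blue for WT and orange for NHD13, with the symbol giving the replicate number and the bar the group mean over 3 libraries. All 3 NHD13 libraries lie below all 3 WT libraries for every gene except Ngp and Camp, and WT replicate 1 is the lowest WT library for all 10.

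S100a8 and S100a9 encode the partners of calprotectin, a calcium- and zinc-binding complex that fills the cytosol of neutrophils. They lie 22.6 kb apart on mouse chromosome 3 (GRCm38, S100a8 at 90668978 to 90670035 on the plus strand and S100a9 at 90692632 to 90695721 on the minus strand). S100a9 was at 9847, 14388 and 13426 CPM in WT replicates 1, 2 and 3 and at 6479.9, 9023 and 8298 CPM in NHD13 replicates 1, 2 and 3. The groups did not overlap, and replicate 1 was the lowest library of each. S100a9 had more counts than any other entry in all 3 WT libraries and ranked 4, 2 and 2 in NHD13 replicates 1, 2 and 3. S100a9 fell 1.58-fold, its mean being 12553 CPM ± 2393 over the WT libraries and 7934 CPM ± 1310.1 over the NHD13 libraries (log2 -0.66, SE 0.16, adjusted p = 0.0146). S100a8 was at 6628, 8782 and 8785 CPM in WT and at 4609, 6196 and 5373 CPM in NHD13. It fell 1.5-fold (log2 -0.58, SE 0.13, adjusted p = 0.013), again without overlap. Neither call held when WT replicate 2 was left out (adjusted p = 0.0655 for S100a8 and 0.0708 for S100a9), nor without WT replicate 3 (0.0651 and 0.0672) or NHD13 replicate 1 (0.0708 and 0.107).

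Of 8 tested S100 family genes 7 fell and none rose (background 15.3% lower, median log2 -0.62). S100a8 and S100a9 themselves are among the 7. The number falling was 3 without WT replicate 2 or WT replicate 3 and 2 with the Y-linked covariate. Within the family the calprotectin genes lay between larger falls and the smaller ones of S100a11 (log2 -0.335) and S100a13 (log2 -0.41). S100a10, the partner of annexin A2, had a mean of 55.5 CPM ± 5.84 in WT and fell 2.52-fold (adjusted p = 0.000221). S100a6 fell 4.24-fold from 38.2 CPM ± 9.48 (adjusted p = 0.000832) and S100a4 fell 3.01-fold from 15.6 CPM ± 3.79 (adjusted p = 0.00151). Both are calcium-binding proteins found in many cell types.

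Ltf and Lcn2 encode the iron-handling proteins of the specific granule. Lactoferrin (Ltf, chromosome 9, 111019271 to 111042767, plus strand) binds iron, and lipocalin 2 (Lcn2, chromosome 2, 32384633 to 32388252, minus strand) captures bacterial siderophores. Ltf was at 4173, 7057 and 5557 CPM in WT replicates 1, 2 and 3 and at 2525, 3432 and 3125 CPM in NHD13 replicates 1, 2 and 3. Lcn2 was at 1849, 3095 and 2594 CPM in WT and at 1144, 1559.9 and 1408 CPM in NHD13. For both genes the groups did not overlap, and WT replicate 2 was the highest library and NHD13 replicate 1 the lowest. Ltf fell 1.85-fold (log2 -0.89, SE 0.18, adjusted p = 0.00846) and Lcn2 fell 1.83-fold (log2 -0.87, SE 0.18, adjusted p = 0.0087). Each call was lost without NHD13 replicate 1 (adjusted p = 0.107 for Ltf and 0.101 for Lcn2) and held without any other single library.

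Camp and Ngp both encode proteins with a cathelicidin-type domain. Camp is the precursor of the antimicrobial peptide CRAMP and Ngp is neutrophilic granule protein, and they lie on chromosome 9, as Ltf does (Camp at 109847379 to 109849617, minus strand; Ngp at 110419747 to 110423012, plus strand). Ngp was at 7835, 12996 and 10102 CPM in WT and at 5562, 7920.2 and 7339.6 CPM in NHD13, so that NHD13 replicate 2 lay above WT replicate 1. It fell 1.49-fold (log2 -0.57, SE 0.18, adjusted p = 0.045). That call was the weakest of the 9 and was lost without any one library other than WT replicate 1, with adjusted p of 0.164 without WT replicate 2 (log2 -0.37), 0.115 without WT replicate 3, 0.273 without NHD13 replicate 1, 0.0565 without NHD13 replicate 2 and 0.0833 without NHD13 replicate 3. Camp was at 2401, 4149 and 3458 CPM in WT and at 1993, 2889 and 2478 CPM in NHD13. Its libraries overlapped more, with NHD13 replicates 2 and 3 above WT replicate 1, and it was the one gene of the 10 not past the threshold (log2 -0.44, SE 0.19, adjusted p = 0.115). It passed without WT replicate 1 (log2 -0.65, adjusted p = 0.025).

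The start regions of some of the granule genes are shown as a description of their sequence. Each is 300 bases from RefSeq (GRCm38.p6), from 250 bases before to 50 bases after the RefSeq start, and 9 of the 10 genes matched a window. Capitals mark TTGCNNAA, a form of the C/EBP recognition sequence, searched on both strands. The windows are chr9:111019042-111019341 (plus strand) for Ltf, chr2:32387690-32387989 (minus strand) for Lcn2, chr9:110419558-110419857 (plus strand) for Ngp, chr9:109849407-109849706 (minus strand) for Camp and chr9:7558179-7558478 (plus strand) for Mmp8, each printed 5′ to 3′ along the gene.
Ltf: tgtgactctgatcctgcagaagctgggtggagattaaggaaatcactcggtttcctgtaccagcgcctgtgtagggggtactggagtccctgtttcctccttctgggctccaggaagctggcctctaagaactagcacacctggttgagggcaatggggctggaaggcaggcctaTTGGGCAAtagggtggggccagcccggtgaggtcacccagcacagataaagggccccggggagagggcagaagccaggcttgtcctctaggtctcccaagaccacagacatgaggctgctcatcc
Lcn2: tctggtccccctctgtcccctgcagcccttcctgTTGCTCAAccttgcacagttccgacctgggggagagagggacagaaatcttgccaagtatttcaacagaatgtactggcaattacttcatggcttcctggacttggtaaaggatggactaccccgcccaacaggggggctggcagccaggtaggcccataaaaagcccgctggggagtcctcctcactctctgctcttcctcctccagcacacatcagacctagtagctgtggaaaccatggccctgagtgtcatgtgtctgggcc
Ngp: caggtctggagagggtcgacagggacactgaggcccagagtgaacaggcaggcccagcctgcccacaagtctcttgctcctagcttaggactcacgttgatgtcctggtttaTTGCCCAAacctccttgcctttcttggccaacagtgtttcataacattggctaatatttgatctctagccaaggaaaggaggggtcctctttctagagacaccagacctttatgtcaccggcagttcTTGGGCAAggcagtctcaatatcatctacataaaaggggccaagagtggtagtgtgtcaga
Camp: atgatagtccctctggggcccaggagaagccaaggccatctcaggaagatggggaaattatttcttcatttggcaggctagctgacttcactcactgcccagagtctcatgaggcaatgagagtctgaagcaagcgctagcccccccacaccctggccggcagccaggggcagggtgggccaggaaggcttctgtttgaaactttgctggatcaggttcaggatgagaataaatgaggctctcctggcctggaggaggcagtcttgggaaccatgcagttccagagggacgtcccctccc
Mmp8: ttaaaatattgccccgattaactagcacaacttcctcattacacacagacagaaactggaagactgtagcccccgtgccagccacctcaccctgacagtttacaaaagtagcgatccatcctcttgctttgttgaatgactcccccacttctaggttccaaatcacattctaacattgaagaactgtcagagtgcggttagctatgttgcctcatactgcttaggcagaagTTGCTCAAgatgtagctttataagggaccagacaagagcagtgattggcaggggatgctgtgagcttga

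TTGCNNAA was present in 6 of the 9 windows, those of S100a9, Ltf, Ngp, Lcn2, Mmp8 and Retnlg, and in 10.8% of all 32851 promoter windows of the same length. Counted from the RefSeq start as 0, the match in Ltf began at -75, in Lcn2 at -216, in Mmp8 at -19, and in Ngp at -138 and -11. GAGGAAG, a PU.1 recognition sequence, was in the windows of S100a8, Lcn2 and Mmp8 (13.6% of all windows), and AAATCAC, a GFI1 recognition sequence, in those of Ltf and Mmp8 (3.2% of all windows). The windows of Camp and Chi3l3 held none of the 3. A match is a description of the letters, and binding was not measured.

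Within a library, one granule gene can be set against another without any scaling between libraries. The log2 ratio of Ltf to Lcn2 counts was 1.15 ± 0.048 in WT and 1.14 ± 0.006 in NHD13 (SD, n = 3 each), the pair of the 45 whose ratio differed least between the groups. That of S100a8 to Ngp differed by -0.022 between the groups, with a wider spread (-0.34 ± 0.2 in WT and -0.36 ± 0.089 in NHD13), and that of S100a9 to Chi3l3 by 0.036. Ltf against Camp did differ, with log2 ratios of 0.80, 0.77 and 0.68 in WT replicates 1, 2 and 3 and 0.34, 0.25 and 0.335 in NHD13 replicates 1, 2 and 3. Camp against Lcn2 was 0.405 ± 0.024 in WT and 0.835 ± 0.047 in NHD13. Camp counts were higher relative to both iron-handling genes in every NHD13 library than in any WT library, NHD13 replicate 1 included. Ngp also lay higher against Ltf, whose log2 ratio to Ngp was -0.88 ± 0.023 in WT and -1.19 ± 0.048 in NHD13. The pairs described here were picked from 45 after their values were seen, and an exact permutation test of 3 against 3 libraries cannot give a two-sided p below 0.1.

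**Figure D2:**
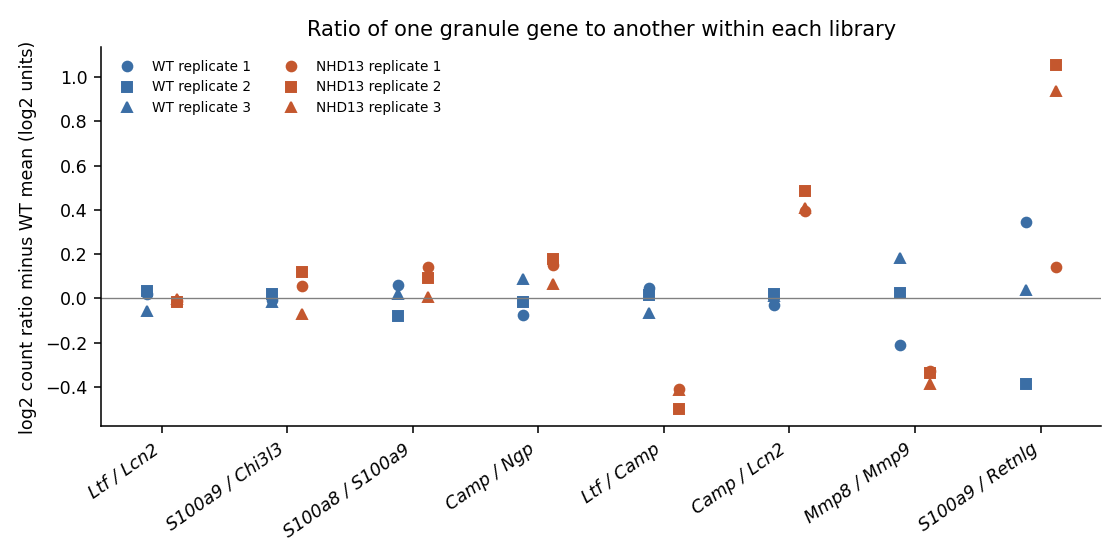
Log2 ratio of the counts of one granule gene to another within each library, minus the mean of the 3 WT libraries (log2 units), for 8 of the 45 pairs. The Ltf to Lcn2 ratio is level across all 6 libraries, while all 3 NHD13 libraries lie below all 3 WT libraries for Ltf to Camp and above them for Camp to Lcn2.

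Chi3l3, now named Chil3, encodes the chitinase-like protein Ym1, made by neutrophils and by some macrophages (chromosome 3, 106147554 to 106167564, minus strand). It was at 2782, 3983 and 3814 CPM in WT and at 1751, 2333 and 2450.2 CPM in NHD13, with no overlap. It fell 1.62-fold (log2 -0.70, SE 0.16, adjusted p = 0.0127), which did not hold when WT replicate 2 was left out (adjusted p = 0.0642), nor without WT replicate 3 (0.0614) or NHD13 replicate 1 (0.063). Its close copy Chi3l4 (Ym2) had 47 counts in all of WT and 40 in all of NHD13, so few reads were assigned to it, and how reads shared by the copies were counted is not stated in the labels. The related Chi3l1 averaged 149 CPM ± 42.1 over WT and 109.7 CPM ± 21.5 over NHD13 and did not pass (adjusted p = 0.148). Among the other relatives of the 10 proteins, the serum iron carrier gene Trf fell 2.28-fold (adjusted p = 0.00506), and the lipocalin gene Lcn4 had 11 counts in all of WT and 32 in all of NHD13 (adjusted p = 0.0203). Lcn4 was the one relative called higher, and none was by DESeq2, with the Y-linked covariate, or when WT replicate 1, replicate 2 of either group or NHD13 replicate 3 was left out.

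Mmp8, Mmp9 and Retnlg were far less abundant and had the widest spread in WT. Mmp8, the neutrophil collagenase (chromosome 9, 7558456 to 7568485, plus strand), was at 44.0, 118 and 84.4 CPM in WT replicates 1, 2 and 3 and at 37.6, 35.4 and 31.2 CPM in NHD13 replicates 1, 2 and 3. Mmp9, the gelatinase that names the tertiary granule (chromosome 2, 164940780 to 164955850, plus strand), was at 84.9, 194 and 124 CPM in WT and at 78.8, 74.6 and 68.2 CPM in NHD13. Retnlg, a secreted resistin-like protein of mature neutrophils (chromosome 16, 48872621 to 48874496, plus strand), was at 36.1, 87.9 and 61.0 CPM in WT and at 27.4, 20.2 and 20.25 CPM in NHD13. For these 3 genes the groups did not overlap, but WT replicate 1 lay close above NHD13 replicate 1, by 6.38 CPM for Mmp8, 6.07 CPM for Mmp9 and 8.75 CPM for Retnlg. Unlike the other 7 genes, these had their highest NHD13 value in replicate 1.

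Retnlg fell 2.73-fold (log2 -1.45, SE 0.29, adjusted p = 0.0074), the largest change of the 10. Mmp8 fell 2.37-fold (log2 -1.25, SE 0.30, adjusted p = 0.015) and Mmp9 fell 1.82-fold (log2 -0.86, SE 0.25, adjusted p = 0.0302). The call of Retnlg was lost without NHD13 replicate 1 (adjusted p = 0.0772), although its log2 change was then -1.605. In the same fit Mmp8 was at -1.30 and Mmp9 at -0.91, so none of the 3 changes was smaller than with all libraries. That of Mmp8 did not hold without WT replicate 2 (0.0569), without WT replicate 3 (0.0588) or NHD13 replicate 1 (0.146). Mmp9 did not pass without WT replicate 2 (log2 -0.50, adjusted p = 0.0744), WT replicate 3 (0.0772), NHD13 replicate 1 (0.196), NHD13 replicate 2 (0.0821) or NHD13 replicate 3 (0.0885). Of the 7 tested matrix metalloproteinase genes 3 fell and none rose (background 15.3% lower). The number falling was 1 without WT replicate 2 or WT replicate 3, and none with the Y-linked covariate. Beside Mmp8 and Mmp9 the third was Mmp25, a membrane-anchored enzyme of neutrophils. It fell 1.77-fold from a WT mean of 47.0 CPM ± 9.75 (adjusted p = 0.00576).

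Per length of exon (RPKM, on GENCODE vM21 exon lengths), the order of mean levels was the same in both groups: S100a9, S100a8, Ngp, Camp, Lcn2, Chi3l3, Ltf, Retnlg, Mmp9 and Mmp8. In WT it ran from 24049 RPKM ± 4584 for S100a9 to 33.9 RPKM ± 15.4 for Mmp8, and in NHD13 from 15198 RPKM ± 2509.8 to 14.3 RPKM ± 1.33. Lcn2, Chi3l3 and Ltf followed each other within their spread in WT, at 2746 RPKM ± 685, 2291 RPKM ± 422 and 1998 RPKM ± 515. In NHD13, Lcn2 (1498 RPKM ± 230.3) and Chi3l3 (1415 RPKM ± 243) differed by less than their spread. Mmp9 and Mmp8 did so in WT only, since in NHD13 Mmp9 was at 23.3 RPKM ± 1.68. No other annotated gene overlaps any of the 10 in the basic GENCODE set.

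Other genes of the specific and gelatinase granules moved the same way in part. Of 26 listed 25 were in the table and 23 were tested, of which 13 fell and none rose (background 15.3% lower), with a median log2 change of -0.58. Olfm4, an olfactomedin of a subset of specific granules, had the largest fall, from 58.8, 113 and 79.3 CPM in WT to 9.98, 13.2 and 15.4 CPM in NHD13 (6.50-fold, adjusted p = 0.000318). Orm1, an acid glycoprotein, fell 2.27-fold (adjusted p = 0.000794) and Cfp, the complement regulator properdin, fell 1.81-fold (adjusted p = 0.00112). Fcnb, a ficolin, averaged 571.5 CPM ± 60.9 over WT and 644 CPM ± 63.3 over NHD13 and was not past the threshold (adjusted p = 0.207). The 13 became 7 when WT replicate 2 or WT replicate 3 was left out, 8 when NHD13 replicate 3 was, and 1 under the Y-linked covariate.

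Of 14 tested primary granule genes 2 fell, a share near the 15.3% of all tested genes, and none rose. Their median log2 change was -0.31, and the difference from the 10 later granule genes was not tested. Myeloperoxidase (Mpo) was at 9696, 7411 and 7573 CPM in WT replicates 1, 2 and 3 and at 9703, 5055 and 5332 CPM in NHD13 replicates 1, 2 and 3, and did not pass (adjusted p = 0.356). So replicate 1 was the highest library of each group for Mpo and the lowest for S100a9, Ltf and Lcn2. The 2 that fell were Hdc, histidine decarboxylase (2.03-fold, adjusted p = 0.00272), and Ctsc, the protease that activates granule serine proteases (2.06-fold, adjusted p = 0.00563). Without NHD13 replicate 1 all 14 fell, with a median of -0.63 where that of the 10 later granule genes was -0.66. With the Y-linked covariate none did, and the medians were -0.62 and -0.42.

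The 10 granule genes were also set against the primary granule genes inside each library. Their summed counts were 1.72, 3.31 and 2.79 times those of the primary granule genes in WT replicates 1, 2 and 3 and 1.18, 2.87 and 2.61 times in NHD13 replicates 1, 2 and 3. On this measure the groups overlapped, and replicate 1 was the lowest of each group. Against the other specific and gelatinase granule genes the ratio was 4.2 ± 0.0716 in WT and 3.99 ± 0.413 in NHD13, a difference smaller than the spread in NHD13.

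**Figure D3:**
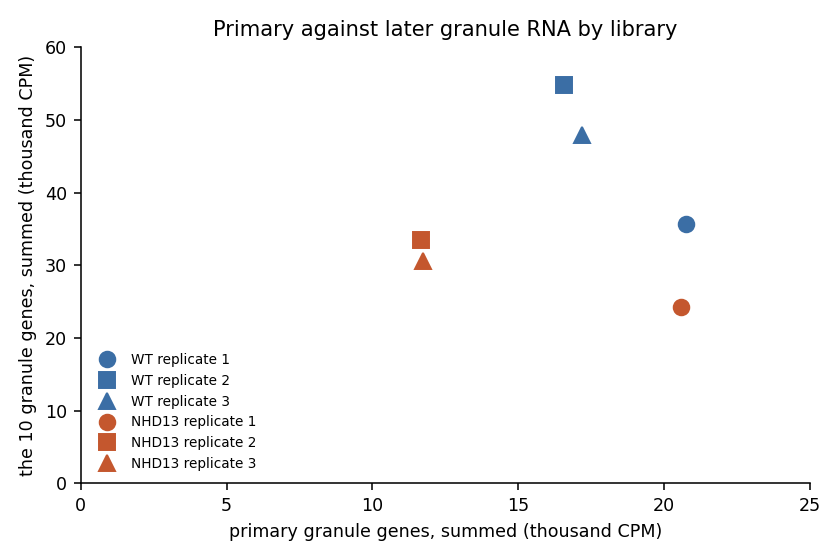
Summed CPM (both axes in kilo-CPM) of the 10 granule genes on the vertical axis against summed CPM of 15 primary granule genes on the horizontal axis, 1 point per library, blue for WT and orange for NHD13. Replicate 1 of each group lies farthest right and lowest in its group, at 20764 CPM of primary granule RNA in WT and 20576.5 CPM in NHD13.

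Of 20 tested transcription factors and other regulators known to act in this lineage, 6 fell and none rose (background 15.3% lower, median log2 -0.22). Cebpe, the C/EBP factor of the specific granule wave, was at 166, 194 and 160.0 CPM in WT and at 175, 159 and 140.4 CPM in NHD13 and did not pass (log2 -0.13, SE 0.10, adjusted p = 0.341). Gfi1, a repressor needed for neutrophil maturation, was at 162, 128 and 132 CPM in WT and at 190.4, 118 and 108 CPM in NHD13 (adjusted p = 0.958). Cebpa (log2 -0.59, adjusted p = 0.0937) and the PU.1 gene Spi1, listed as Sfpi1 (log2 -0.35, adjusted p = 0.0529), did not pass either. The falls with the lowest p were in Irf8, a factor of the monocyte and dendritic branch (3.53-fold, adjusted p = 0.00139), Satb1, a chromatin organiser (2.21-fold, adjusted p = 0.00226), the retinoic acid receptor Rara (1.75-fold, adjusted p = 0.00885) and the core binding factor subunit Cbfb (1.51-fold, adjusted p = 0.015). Without NHD13 replicate 1, 13 of the 20 regulators fell and 1 rose, beside 2966 and 3012 of all 12269 tested genes. The number falling was 3 without WT replicate 2, WT replicate 3 or NHD13 replicate 2, beside 957 of 12175, 978 of 12132 and 1069 of 12207. None fell with the Y-linked covariate, beside 175 of 12013.

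Of 11 tested receptors and inhibitors of the granule proteins 6 fell and none rose (background 15.3% lower, median log2 -0.34). The number falling was 2 without WT replicate 2, 3 without WT replicate 3 or NHD13 replicate 3, and none with the Y-linked covariate. Fpr2, a formyl peptide receptor that cathelicidin peptides engage, fell 2.11-fold from a WT mean of 53.0 CPM ± 18.2 (adjusted p = 0.00943). The metalloproteinase inhibitor gene Reck fell 1.56-fold (adjusted p = 0.00804) and Timp3 fell 4.81-fold from 1.87 CPM ± 0.452 (adjusted p = 0.0112). Slc22a17, described as a lipocalin 2 receptor, fell 2.78-fold from 1.33 CPM ± 0.228 (adjusted p = 0.0161). The calprotectin receptor gene Tlr4 averaged 29.1 CPM ± 5.64 over WT and 25.3 CPM ± 7.80 over NHD13 and did not pass (adjusted p = 0.502).

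In the list of neutrophil surface and secretory vesicle genes, 11 of 23 tested fell and 1 rose (background 15.3% lower and 15.0% higher, median log2 -0.41). The number falling was 5 without WT replicate 2, 6 without WT replicate 3 or NHD13 replicate 3, 7 without NHD13 replicate 2 and none with the Y-linked covariate. Clec5a (1.55-fold, adjusted p = 0.00166), the Fc receptor gene Fcgr3 (1.80-fold, adjusted p = 0.00356) and the activating receptor gene Trem3 (1.45-fold, adjusted p = 0.0039) fell. The one that rose was Stfa2l1, a cytosolic stefin placed in this list, with WT at 0.559 CPM ± 0.241 and NHD13 at 49.3 CPM ± 22.2 (adjusted p = 0.000159), and reads of the close stefin copies may be shared. Cxcr2, the chemokine receptor of mature neutrophils, averaged 45.2 CPM ± 10.4 over WT and 37.2 CPM ± 3.70 over NHD13, and the G-CSF receptor gene Csf3r 272 CPM ± 8.69 and 233 CPM ± 45.6, neither past the threshold (adjusted p = 0.219 and 0.186).

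**Figure D4:**
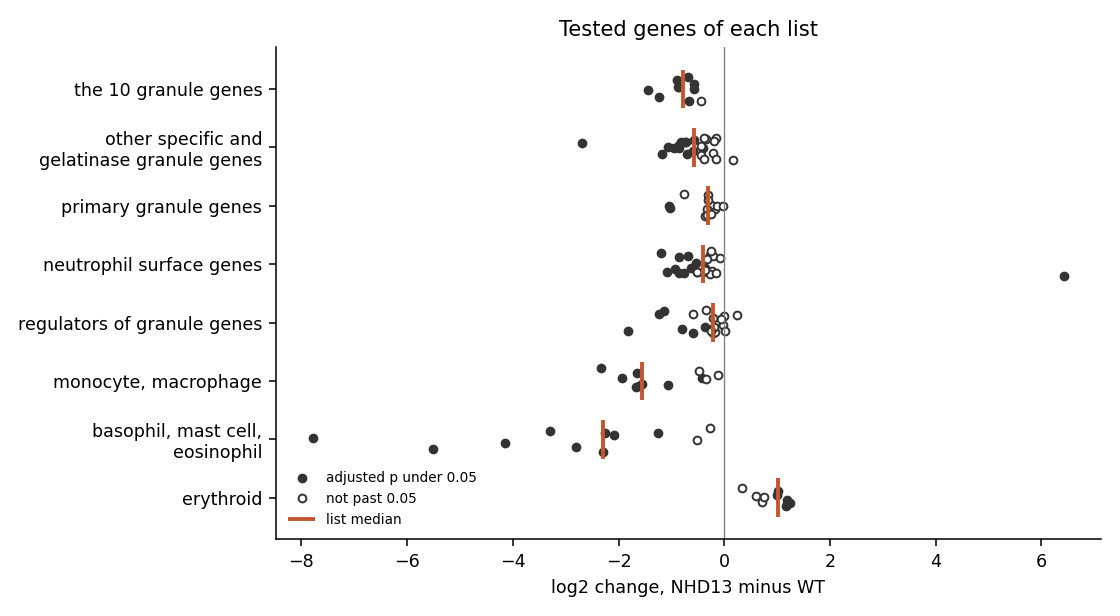
Log2 change (NHD13 minus WT) of each tested gene in 8 lists, filled where the adjusted p was under 0.05 and open where it was not, with the orange line at the list median. The 10 granule genes lie between -1.45 and -0.44, and erythroid genes lie above 0. The primary granule genes Ctsc (-1.04) and Hdc (-1.02) lie within the range of the 10, as does Ctsg, which was not past the threshold.

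Over the 6 libraries, the genes whose log2 CPM most resembled the mean standardised profile of the 10, among 10140 other genes (mean log2 CPM 2 or more), were Cybb, Ifitm6, Fpr2, Lyz2 and 1810033B17Rik (Mcemp1). Their Pearson r ran from 0.997 for Cybb to 0.994 for 1810033B17Rik, given as a description since all genes share the same libraries. Cybb, the catalytic subunit of the NADPH oxidase stored in specific granule membranes, fell 1.49-fold (adjusted p = 0.0194). Lyz2, lysozyme, fell 1.93-fold from a WT mean of 3232 CPM ± 869 (adjusted p = 0.00877).

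Markers of other cells moved beside the granule genes. Each count of them stands against 15.3% of all tested genes called lower and 15.0% called higher. Stem cell markers summed to between 518 and 548 CPM in WT and between 287 and 341 CPM in NHD13, where the 10 granule genes summed to between 35679.7 and 54850.4 CPM and between 24208 and 33484 CPM. Most of the WT sum of stem cell markers came from Kit (244 to 269 CPM) and Cd34 (173 to 179 CPM). Procr, Fgd5 and Hoxb5 had only 14, 4 and 2 counts in all of WT. Of 11 tested stem cell markers 6 fell and 1 rose. Erythroid markers summed to 1815 to 2069.96 CPM in WT and 2327 to 4168 CPM in NHD13, and 6 of 10 tested rose and none fell. All 10 rose without NHD13 replicate 1, and none passed with the Y-linked covariate. Monocyte and macrophage markers summed to 1802 to 2059 CPM and 819.7 to 1248 CPM, and 8 of 11 tested fell. Basophil, mast cell and eosinophil markers summed to 1413 to 1688 CPM and 188 to 442 CPM, and 9 of 11 tested fell. Dendritic cell markers summed to 133 to 203 CPM and 44.9 to 54.0 CPM, and 6 of 8 tested fell. In B cell markers 2 of 5 tested fell, and none did when replicate 2 or replicate 3 of either group was left out. In T and NK cell markers 3 of 7 fell, and 2 when any one of those same libraries was left out. In megakaryocyte markers 1 of 7 fell and 1 rose, near the background of 15.3% lower and 15.0% higher, and none rose without WT replicate 2, WT replicate 3 or NHD13 replicate 2. The Y-linked covariate left 2 stem cell, 5 monocyte, 5 basophil and mast cell, 4 dendritic, 1 megakaryocyte and no B, T or NK cell marker falling. Over all 12013 tested genes it left 175 falling. None of the matched genes of these marker lists was at 0 in all 6 libraries, but some lay near it. Gp6 had 0 counts in all of WT and 1 in all of NHD13, and Pax5 had 8 and 5. The part of these cells in the lower granule RNA was not tested.

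**Figure D5:**
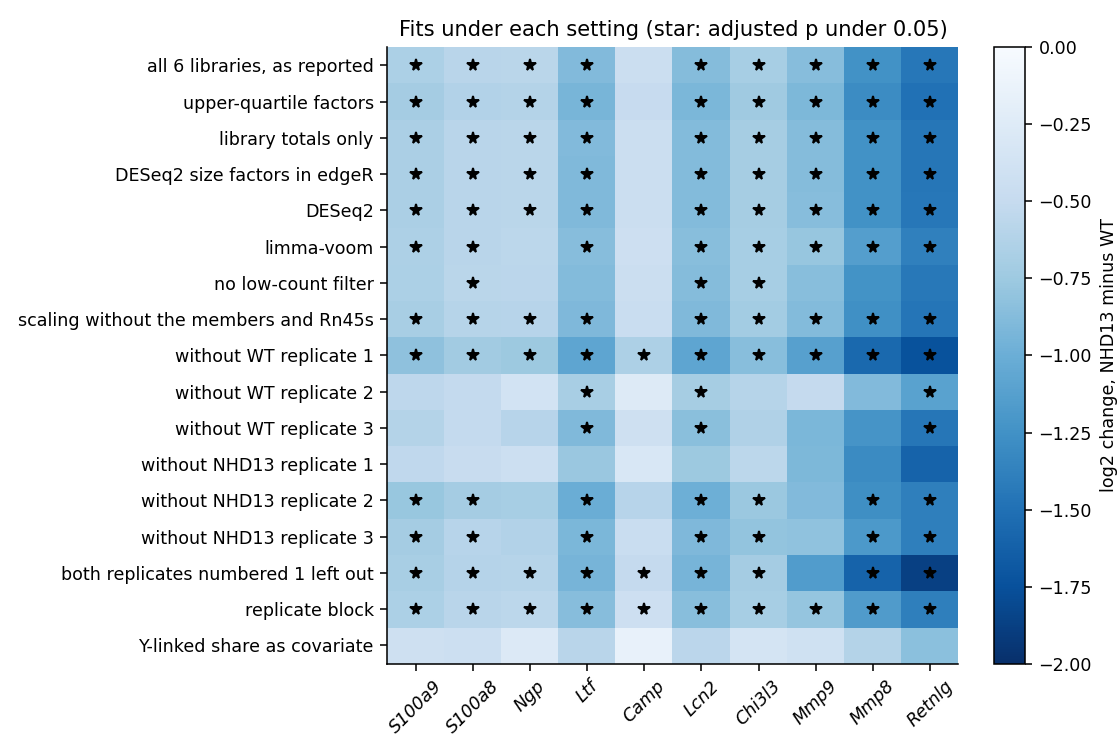
Log2 change (NHD13 minus WT, colour scale) of the 10 granule genes under the reported fit and 16 other settings, 1 row per setting, with a star where the adjusted p was under 0.05. All values are negative, and the rows without NHD13 replicate 1 and with the Y-linked share as covariate carry no star.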

How the data were processed

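RNA-seq of 3 WT and 3 NHD13 libraries was analysed from 1 deposited table, in which the authors gave unnormalised whole-number read counts. Bowtie2 2.2.1, HTSeq 0.5.4p3 and genome build mm10 are listed, per the submitters' processing notes. No label states the annotation, the strand setting or any filter. Columns were matched to samples by group letters and replicate number. Of 17523 entries, 719 held only 0 and every entry carried a gene symbol.

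Genes were kept by filterByExpr (minimum count 10), leaving 12013, scaled by TMM and tested with edgeR 4.0.16 in R 4.3.3 (quasi-likelihood F test, robust, group only, two-sided). P-values were adjusted by Benjamini-Hochberg over all tested genes, with a threshold of 0.05. The SE was taken as log2 change over the root of F. CPM are mean ± SD over 3 libraries, and a count of 0 allows up to 3 counts, or 0.2085 to 0.2392 CPM (counting error only). The script was tested on simulated data. limma 3.58.1 and DESeq2 1.42.0 gave alternatives. RPKM used GENCODE vM21 basic exon lengths (GRCm38, which is mm10).

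The 10 genes and the gene lists were chosen with earlier results of these data known. Named are the 10 genes, up to 4 of each list with the lowest p past the threshold (always Cebpe, Gfi1, Cebpa and Spi1), and the 5 most alike genes. The close copy Chi3l4 is named, but only some of the other relatives are. S100a11, S100a13, Fcnb, Tlr4, Cxcr2, Csf3r, Mpo and Ctsg were added after their values were seen. Cell marker lists are given as sums and counts, with Kit, Cd34, Procr, Fgd5, Hoxb5, Gp6 and Pax5 named after their values were seen.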

Additional observations from a re-analysis of the deposited data

How the results depend on the processing

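All 10 log2 changes stayed negative under all 16 other settings. Upper-quartile factors, library totals, DESeq2 size factors, DESeq2 and scaling without the 10 genes and Rn45s each called the same number, 9. Over all 12013 tested genes these settings called from 1832 (DESeq2) to 2132 (upper-quartile factors) lower. Leaving out 1 library in turn gave log2 changes from -0.72 to -0.475 for S100a8, -0.83 to -0.53 for S100a9, -1.08 to -0.68 for Ltf, -0.65 to -0.255 for Camp, -0.75 to -0.37 for Ngp, -1.07 to -0.70 for Lcn2, -1.56 to -0.89 for Mmp8, -1.12 to -0.50 for Mmp9, -1.735 to -1.105 for Retnlg and -0.86 to -0.56 for Chi3l3. The count of these genes called lower then ran from 0 to 10, that of all tested genes called lower from 957 (without WT replicate 2) to 2966 and that called higher from 760 (without NHD13 replicate 2) to 3012, both highest without NHD13 replicate 1.

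With the Y-linked share as covariate, no call held: S100a8 was at -0.43, S100a9 at -0.41, Ltf at -0.58, Ngp at -0.27, Lcn2 at -0.565, Mmp8 at -0.61, Mmp9 at -0.40, Retnlg at -0.84 and Chi3l3 at -0.35. That fit called 0 of the 10 lower, and 111 genes higher and 175 lower over all tested genes. Without the low-count filter only 3 of the 10 were called, and S100a9 (-0.66), Ltf (-0.88), Ngp (-0.57), Mmp8 (-1.24), Mmp9 (-0.86) and Retnlg (-1.445) were not past the threshold at nearly the same change. Over all genes that fit called 1904 of 16804 lower, against 1839 of 12013 with the filter. The cause of the lost calls was not tested. By limma-voom Ngp (-0.56) was not past it. With replicate 1 of both groups left out, Camp passed (-0.50) and Mmp9 did not (-1.15), and 3244 genes were higher and 3245 lower over all.

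Equal replicate numbers do not pair the samples by the labels. Deviations from the group means of same-numbered libraries correlated at 0.249, 0.063 and 0.175 for numbers 1, 2 and 3, and NHD13 replicate 2 correlated better with WT replicate 3 (0.149). The remaining pairs of unlike number ran from -0.235 to 0.055. Deviations from a mean of 3 libraries sum to 0, so these correlations constrain each other and cannot decide whether the libraries are paired. With the replicate number as a block 10 of the 10 were called lower, Camp among them (-0.42), with 2007 genes higher and 2233 lower over all.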
